A study of Mus musculus with 4 samples.

Results

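Smooth muscle cells and pericytes surround the crypts and vessels of the colon, and 10 genes that mark them were followed through bulk RNA sequencing of colonic epithelial cells from mice with colitis. The genes, chosen by symbol, were *Acta2*, *Actg2*, *Tagln*, *Myh11*, *Des*, *Cnn1*, *Myl9*, *Tpm2*, *Rgs5* and *Pdgfrb*, which are 10 of the 16015 genes listed and lie on 8 chromosomes. Libraries came from 2 mice labelled WT and 2 mice labelled *Bmal1* cKO, 1 library per mouse. By the study's methods the controls carried *Bmal1* fl/fl alone and the cKO mice carried *Villin-CreERT2* as well. Tamoxifen, which activates Cre, is recorded as injected for 5 days in both groups. All mice drank 3% dextran sulfate sodium (DSS), which injures the colonic epithelium, over 5 days and plain water over the next 2 days, and cells were taken on day 7. The comparison asks how epithelial cell preparations of the injured colon differ after deletion of the clock gene *Bmal1* in the epithelium, here in muscle and mural transcripts. In the study's methods, crypts are loosened with EDTA, scraped off and passed through a strainer. The muscle of the colon itself was not sampled, and how much underlying tissue came along in each preparation was not measured. *Villin* drives Cre in intestinal epithelium, so muscle and pericytes are not the cells in which *Bmal1* was to be deleted. By the same methods, all mice were littermates of C57BL/6 background, 2 to 4 months old.

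In the colon, smooth muscle forms the thin muscularis mucosae under the crypts and the thick outer coat, and it contracts when myosin slides along actin filaments. Pericytes wrap capillaries, depend on platelet-derived growth factor (PDGF) signals from endothelium, and share much of the contractile gene set with vascular smooth muscle. Serum response factor drives many contractile genes by binding a short DNA element, the CArG box, in their promoters. Neither cell type is epithelial.

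RefSeq promoter sequences (GRCm38.p6, 250 bases before to 50 after the start) were held for 6 of the 10 genes, namely *Acta2*, *Des*, *Cnn1*, *Myl9*, *Tpm2* and *Rgs5*. They were searched for the CArG box after the falls of these genes were seen, and a role of the box in the falls was not tested. A complete box was in 1 of the 6, *Myl9*, at bases -161 to -152 from the start, and 1.63% of the 32851 promoters in the table held one. Boxes with 5 of the 6 central bases A or T were in *Acta2* (-84 to -75 and -34 to -25) and *Myl9* (-99 to -90), and 8.50% of all promoters held such a box. The box reads as a box on both strands. The E-box CACGTG, the element that BMAL1 and its partner CLOCK bind, was in 0 of the 6 and in 7.15% of all promoters. The 4 boxes are shown, 5′ to 3′ on the strand of the gene, with the box in capitals and 10 bases on either side.
Acta2 distal box, chr19:34255438-34255467, minus strand: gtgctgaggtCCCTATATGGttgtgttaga
Acta2 proximal box, chr19:34255388-34255417, minus strand: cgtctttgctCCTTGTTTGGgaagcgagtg
Myl9 complete box, chr2:156775293-156775322, plus strand: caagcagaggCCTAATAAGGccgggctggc
Myl9 proximal box, chr2:156775355-156775384, plus strand: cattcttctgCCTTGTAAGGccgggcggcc
Both *Acta2* stretches fall inside an exon of a longer *Acta2* transcript in GENCODE, and both *Myl9* stretches lie outside annotated exons. A match of letters is a description and shows no binding.

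The values are normalized counts, the reads of each gene scaled by the authors' size factor for that library. Reads on listed genes numbered 10312791 to 14156639 per library. The targeted gene, listed as *Arntl*, had 358 and 342 normalized counts in the WT mice against 341 and 289 in the *Bmal1* cKO mice, with an adjusted p of 0.389 (limma). Counts per gene do not show whether reads cover the deleted exon, so these values do not check the cKO label. Epithelial markers were abundant in every library, with the keratin *Krt8* between 33319 and 39915 normalized counts. The WT mice differed from each other in stromal markers. Fibroblast markers summed to 20815 normalized counts in WT mouse 1 and 3638 in WT mouse 2, against 739 and 797 in the *Bmal1* cKO mice, and endothelial markers summed to 4488 and 1052 against 169 and 234.

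The smooth muscle and pericyte genes were much lower in the *Bmal1* cKO libraries (plot of normalized counts by library). Of the 10 genes, 9 passed the test as lower and 0 as higher, while 27.7% of the 13983 genes tested were called lower and 29% higher. Scaling by library totals moved the calls over all genes from 3871 lower and 4059 higher to 4885 and 3091, and 9 of the 10 genes were again called lower. Both *Bmal1* cKO libraries lay below both WT libraries for 10 of 10 genes, and for 41.7% of all tested genes. Their median log2 fold change was -6.42, and that of all tested genes was -0.04. Summed over the 10 genes, the WT mice had 3730 and 3410 reads and the *Bmal1* cKO mice 130 and 124, or 3151 and 2888 normalized counts against 134 and 168. In bulk RNA, fewer cells of a type and less RNA per cell cannot be told apart. Fold changes are on the log2(normalized count + 1) scale, cKO against WT, tested with limma over all 13983 genes, and p-values measure only the spread between these 4 mice. An exact test of 2 mice against 2 cannot go below p = 0.333.

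**Figure D1:**
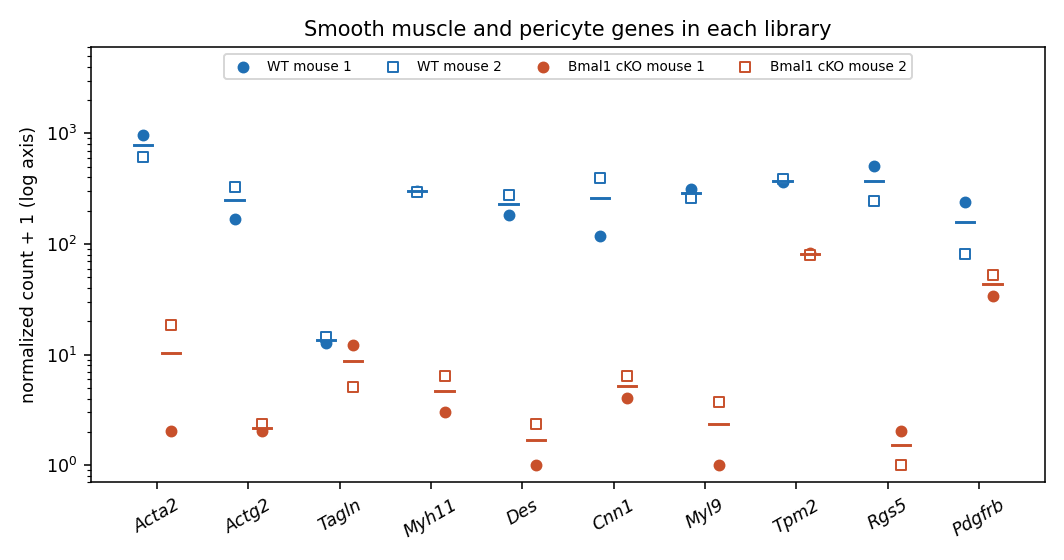
Normalized count plus 1 (log axis) of each gene in WT (blue) and *Bmal1* cKO (red) mice, with a bar at the mean of each pair. For 7 genes both *Bmal1* cKO mice lie below 20 normalized counts and both WT mice above 100, and *Tagln*, *Tpm2* and *Pdgfrb* show smaller gaps.

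The thin filament genes include the smooth muscle actins. *Acta2* (chromosome 19, 34241090 to 34255590, GRCm38), the α-actin of vascular smooth muscle and of myofibroblasts, had 957 and 610 normalized counts in the WT mice against 1.03 and 17.6 in the *Bmal1* cKO mice, from 1 and 13 reads. On the log2 scale the change was -6.96 (standard error, SE, 1.02, adjusted p = 0.00333, limma), the largest standard error of the 10 genes, and the *Bmal1* cKO mice themselves differed widely. The level in the WT mice was 95.8 times that in the cKO mice (95% exact interval 57.0 to 176, which like the other intervals covers counting error only). *Actg2* (chromosome 6, 83512905 to 83536265), the γ-actin of visceral muscle, had 167 and 329 normalized counts against 1.03 and 1.35, or 1 read in each *Bmal1* cKO library. It fell by 6.75 on the log2 scale (SE 0.54, adjusted p = 6.44e-04, limma). With 2 reads in the cKO libraries, the ratio of 212 has a counting interval of 58.5 to 1756, so its size is known only within that range.

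The proteins that sit on the thin filament did not fall alike. *Cnn1* (chromosome 9, 22099216 to 22109630), the calponin that restrains actomyosin, had 117 and 398 normalized counts in the WT mice against 3.09 and 5.41 in the *Bmal1* cKO mice. It fell by 5.40 on the log2 scale (SE 0.68, adjusted p = 0.00203, limma). *Tpm2* (chromosome 4, 43514711 to 43523765), a tropomyosin that lies along actin, had 362 and 385 against 81.3 and 78.4. The mice of each group were nearly equal for *Tpm2*, and it fell by 2.21 (SE 0.17, adjusted p = 5.90e-04, limma), a WT level 4.67 times the cKO level (3.90 to 5.64). Of the genes with over 100 normalized counts in both WT mice, *Tpm2* kept the most transcript in the *Bmal1* cKO libraries.

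*Tagln*, which encodes the calponin-related protein SM22α, did not pass the test. It had 11.8 and 13.6 normalized counts in the WT mice against 11.3 and 4.06 in the *Bmal1* cKO mice, from 14, 16, 11 and 3 reads. Its fitted change of -0.79 on the log2 scale (SE 0.76, adjusted p = 0.406, limma) was about the size of its error, and the ratio of 1.55 has a counting interval of 0.798 to 3.17, which holds no change as well as a 3-fold fall. *Tagln* (chromosome 9, 45929619 to 45936058, minus strand) overlaps other genes. Exons on the opposite strand cover 67.9% of its exon bases, from the antisense RNA *Gm48529* and the end of the protease gene *Pcsk7*, and 33.2% of the 100-base windows of its longest transcript occur in transcripts of these genes. *Gm48529* held 34 and 41 reads in the WT mice against 24 and 16 in the *Bmal1* cKO mice, more than *Tagln* in each library. Whether the counting used strand is not given in the sources used here, and the part of the overlap in the low *Tagln* counts was not tested. Apart from *Des*, of which 4.20% of windows occur in *Gm15179*, the other 8 genes share 0 such windows with any other gene, the actins included.

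Genes of the thick filament and of the intermediate filament were nearly absent from the *Bmal1* cKO libraries. *Myh11* (chromosome 16, 14194535 to 14291372), the myosin heavy chain of smooth muscle and a defining marker of it, had 302 and 296 normalized counts in the WT mice against 2.06 and 5.41 in the *Bmal1* cKO mice. It fell by 6.09 on the log2 scale (SE 0.48, adjusted p = 6.34e-04, limma), with a WT level 85.4 times the cKO level (39.1 to 234). *Myl9* (chromosome 2, 156775420 to 156781658), the regulatory light chain whose phosphorylation starts contraction, had 311 and 260 against 0 and 2.70, and it fell by 7.21 (SE 0.73, adjusted p = 0.00108, limma). *Des* (chromosome 1, 75360329 to 75368579), desmin, which ties the contractile units of muscle together, had 182 and 275 against 0 and 1.35, and it fell by 7.20 (SE 0.64, adjusted p = 7.98e-04, limma). The cKO libraries held 2 reads on *Myl9* and 1 on *Des*, so the ratios of 244 (67.4 to 2022) and 392 (70.0 to 15502) are loose.

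The pericyte genes divided. *Rgs5* (chromosome 1, 169655501 to 169695813), a regulator of G protein signalling that marks pericytes and vascular smooth muscle, had 503 and 241 normalized counts in the WT mice against 1.03 and 0 in the *Bmal1* cKO mice. It fell by 7.94 (SE 0.63, adjusted p = 6.44e-04, limma), rank 3 of the 13983 genes by size of fall, and 1 read remained, which gives a ratio of 637 with an interval of 114 to 25198. *Pdgfrb*, the PDGF receptor of pericytes and fibroblasts on chromosome 18, had 237 and 79.6 normalized counts against 32.9 and 51.4. WT mouse 2 lay nearer to the *Bmal1* cKO mice than to WT mouse 1. *Pdgfrb* fell by 1.72 (SE 0.57, adjusted p = 0.0475, limma). The call for *Pdgfrb* ended in 7 of 15 alternatives, among them the fit without WT mouse 1 (log2 fold change -0.94, adjusted p = 0.189, limma), the fit without *Bmal1* cKO mouse 1 (-1.40, adjusted p = 0.240) and the fit without *Bmal1* cKO mouse 2 (-2.03, adjusted p = 0.135). Without WT mouse 2 it was -2.50 (adjusted p = 0.0268, limma). Each of the other 8 genes that fell kept its call in 15 of 15 alternatives, although *Acta2* came close to the threshold without WT mouse 1 (adjusted p = 0.0496, limma).

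GC content moved with the difference between the groups. Across all tested genes, the log2 fold change and the GC content of the exons had a Spearman correlation of -0.61, given as a description since genes are not independent, and with the genes divided by GC content into 10 equal classes, the class medians ran from 1.13 in the lowest to -1.35 in the highest. The exons of the 10 genes held 41.1% (*Rgs5*) to 56.6% (*Myl9*) G and C. With each library corrected for GC content and exon length, 8 of the 10 genes were called lower (17.6% of all genes were lower with the correction and 18.4% higher), their median was -6.02, and *Pdgfrb* was no longer called (-1.12, adjusted p = 0.185, limma). *Rgs5*, the gene with the lowest GC content, fell further with the correction (-8.86), and *Tpm2* less far (-1.57, adjusted p = 0.00416, limma).

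Levels of different genes can be compared only per length of exon. In normalized counts per kilobase, the WT means were highest for *Acta2* (357), *Myl9* (246), *Actg2* (159) and *Tpm2* (129), followed by *Cnn1* (94.1), *Rgs5* (81.8), *Des* (61.0), *Myh11* (39.4), *Pdgfrb* (28.9) and *Tagln* (6.38). Among neighbours in this order, the values of the WT mice overlapped between *Actg2* and *Tpm2*, along the run from *Tpm2* through *Cnn1* and *Rgs5* to *Des*, and between *Myh11* and *Pdgfrb*. They did not overlap between *Acta2* and *Myl9*, *Myl9* and *Actg2*, *Des* and *Myh11*, or *Pdgfrb* and *Tagln*. The order in the *Bmal1* cKO mice was another one, led by *Tpm2* (27.4 per kilobase), *Pdgfrb* (7.69), *Acta2* (4.24) and *Tagln* (3.87). The remaining 6 genes ranged from 1.55 for *Cnn1* to 0.113 for *Rgs5*. What little signal the *Bmal1* cKO libraries had for these genes thus lay mostly on *Tpm2* and *Pdgfrb*, and 4 of the 10 genes had at most 3 reads over both cKO libraries, against 1.95% of all tested genes.

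Many of these genes have close relatives that nonmuscle cells use, and most of the relatives had smaller log2 fold changes (plot of the genes beside their paralogs). Of 20 paralogs tested, 12 were lower and 1 higher, with a median log2 fold change of -1.12, beside 27.7% lower and 29% higher among all genes. Without 1 mouse 7 to 13 were lower and 0 higher, the 7 both without *Bmal1* cKO mouse 1 and without *Bmal1* cKO mouse 2, and of all genes 15.8% to 20.4% were lower in these fits and 19% to 22.6% higher. The cytoplasmic actin *Actb* had 30715 and 33130 normalized counts against 26782 and 26653 and did not pass the test (-0.26, adjusted p = 0.183, limma), though library total scaling and DESeq2 called it lower. *Actg1*, the other cytoplasmic actin, was higher in the *Bmal1* cKO mice, with 26513 and 27673 against 40766 and 35680 (0.49, adjusted p = 0.0444, limma). That call was lost in each fit that left out a mouse, with a block for the mouse number and under scaling by library totals. The skeletal actin *Acta1* fell from 64.2 and 163 to 37.0 and 25.7 (-1.70, adjusted p = 0.0371, limma) and was not called after the GC correction (adjusted p = 0.282), without WT mouse 2 (-1.03, adjusted p = 0.148) or without either *Bmal1* cKO mouse.

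The nonmuscle myosins and tropomyosins had log2 fold changes nearer to 0 than those of *Myh11*, *Myl9* and *Tpm2*. *Myh9* fell from 11164 and 11454 to 5214 and 5536 (-1.07), and after the GC correction its log2 fold change was -0.15 (adjusted p = 0.301, limma). *Myh14*, a further nonmuscle heavy chain, had -0.43 and did not pass the test, while it was called higher with the correction (1.01, adjusted p = 0.00866, limma) and lower without WT mouse 1 (-0.63), under library total scaling and by DESeq2. *Myh10* fell (-1.59, adjusted p = 0.0430, limma), and its call ended with the correction (adjusted p = 0.0830), with a block for the mouse number, without WT mouse 1 and without either *Bmal1* cKO mouse. The nonmuscle light chains *Myl12a* (-1.48) and *Myl12b* (-1.14) fell with and without the correction. *Tpm1* (-0.29) and *Tpm3* (0.00) did not pass the test, library total scaling called *Tpm1* lower, and *Tpm4* fell (-0.51, adjusted p = 0.0327, limma). The call for *Tpm4* ended without WT mouse 1 (-0.31, adjusted p = 0.0780) and without either *Bmal1* cKO mouse. *Cnn2* fell (-1.37), a call that ended without either *Bmal1* cKO mouse, and *Cnn3* did not pass the test (-0.22) but was called lower without WT mouse 2 (-0.88) and had 0.44 without WT mouse 1. *Tagln2* fell from 5066 and 4778 to 2318 and 2256 (-1.10, or -0.36 with the correction). *Tagln*, with its few reads, had -0.79 (SE 0.76), and the difference from *Tagln2* was not tested.

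Some relatives that mark other stromal or immune cells fell further. *Vim*, the intermediate filament vimentin of mesenchymal and blood cells and the paralog of desmin, had 1702 and 1160 normalized counts against 79.2 and 116 (-3.86, adjusted p = 5.37e-04, limma). *Csf1r*, the macrophage receptor, fell by 3.28 and *Pdgfra*, the fibroblast receptor, by 2.84, beside the *Pdgfrb* value of -1.72. *Pdgfra* had 350 and 119 normalized counts in the WT mice, and its call ended without WT mouse 1 (-2.06, adjusted p = 0.0768, limma) and without either *Bmal1* cKO mouse (adjusted p up to 0.102). The differences between these receptors were not tested. *Kit*, of mast cells and pacemaker cells, had -0.10 and did not pass the test. Among the *Rgs* genes, *Rgs16* (-2.88) and *Rgs4* (-1.36) fell, though *Rgs16* was not called without WT mouse 1 (-2.73, adjusted p = 0.0523, limma) and *Rgs4* was called in none of the 4 fits without 1 mouse (adjusted p 0.0870 to 0.160), and *Rgs2* had -1.76 (adjusted p = 0.0764, limma) without passing. *Rgs2* was called lower with the GC correction (-2.43, adjusted p = 0.0447, limma), by DESeq2 and without WT mouse 2 (-2.81), and had -0.72 without WT mouse 1.

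**Figure D2:**
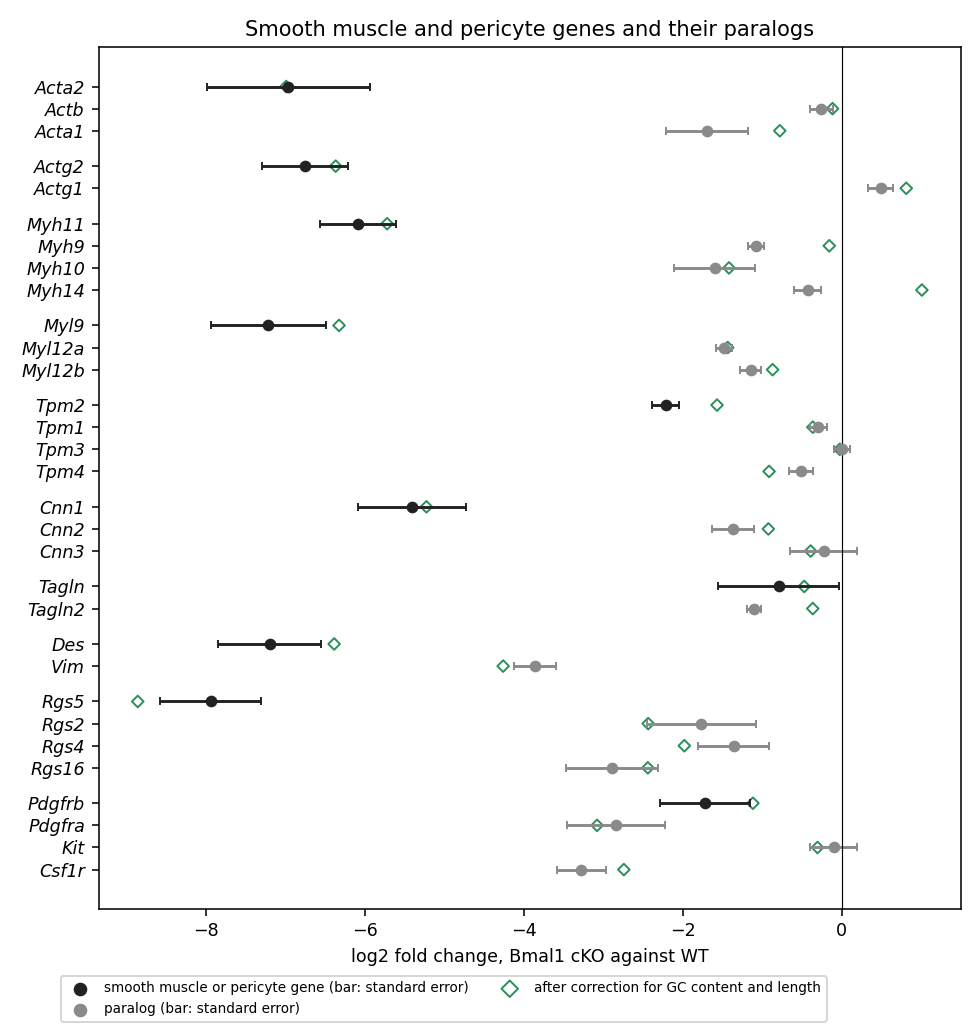
Log2 fold change, *Bmal1* cKO against WT, of each smooth muscle or pericyte gene (black) above its paralogs (grey, with *Rgs4* drawn from the mural cell list), with bars for the standard error and green diamonds for the values corrected for GC content and exon length. *Acta2* lies at -6.96 and *Actb* at -0.26, and *Myh11* at -6.09 lies left of *Myh9*, *Myh10* and *Myh14*.

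The wider contractile program was mixed. Of 22 other contractile and cytoskeletal genes tested, 14 were lower and 3 higher, with a median of -1.59, and 11 and 1 with the GC correction. Of all genes 27.7% were lower and 29% higher, and 17.6% and 18.4% with the correction. The 4 most abundant of them are widely used outside muscle. The filamin *Flna* fell from 2941 and 1919 to 712 and 592 (-1.87, adjusted p = 0.00168, limma), and the LIM protein *Fhl1* (0.27) and the actinin *Actn1* (-0.04) did not pass the test. The 3 higher genes were *Ldb3*, *Dmd* and *Ppp1r12a*, the first 2 named after their values were seen. *Ldb3*, which encodes a protein of the muscle Z-disc, rose from 118 and 166 to 478 and 469 (1.75, adjusted p = 0.00155, limma), and kept its call with the correction (1.69) and in every fit without 1 mouse. *Dmd*, dystrophin, rose (1.20) and was not called with the correction (0.31). *Ppp1r12a*, a subunit of myosin phosphatase, was higher (0.70), and with the correction it was called lower (-0.38, adjusted p = 0.0293, limma). Genes of calcium, potassium and cyclic GMP signalling, which set the tone of smooth muscle, numbered 15 in the list, of which 11 were tested, with 5 lower and 2 higher. Leaving out 1 mouse left 3 lower without WT mouse 1 and 3 without WT mouse 2, 2 without *Bmal1* cKO mouse 1 and 1 without *Bmal1* cKO mouse 2. The higher ones were *Atp2a2*, the calcium pump of the endoplasmic reticulum that most cells use (5653 and 5397 against 13833 and 12596, log2 fold change 1.26), and the cyclic GMP phosphodiesterase *Pde5a* (0.77), which was not called with the GC correction (0.38, adjusted p = 0.0634, limma). *Kcnma1*, the large-conductance potassium channel (-0.96), and the calcium release channel *Itpr1* (-0.16) did not pass the test. *Kcnma1* was called lower with the correction (-1.50, adjusted p = 0.0346, limma), with a block for the mouse number and under library total scaling.

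Of 12 transcription factors of the program, 6 were lower and 1 higher with a median of -1.04, beside 27.7% and 29% of all genes. After the GC correction 1 was lower and 1 higher, beside 17.6% and 18.4%, and without *Bmal1* cKO mouse 1 there were 3 lower. *Klf4*, which represses contractile genes and is also a colonic epithelial factor, had 3849 and 5728 normalized counts against 2061 and 2740 (-0.98, adjusted p = 0.0161, limma), and -0.40 with the correction, when it was not called. Its call also ended without WT mouse 2 and without either *Bmal1* cKO mouse (adjusted p up to 0.126). *Mef2d* fell with and without the correction (-1.10 and -0.49). *Tead1* (0.21) and *Gata6* (0.29) did not pass the test, the sign of *Tead1* turned under library total scaling and the correction, and *Gata6* was called higher with the correction (0.95).

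Of 10 other mural cell genes tested, 6 were lower and 0 higher, both with and without the GC correction, where 27.7% of all tested genes were lower without it and 17.6% with it. The other 4 did not pass the test without the correction. The median was -2.52. Without WT mouse 1 it was -1.80 with 4 genes lower, without WT mouse 2 it was -3.17 with 8 lower, and 4 were also lower without either *Bmal1* cKO mouse. *Kcnj8* and *Abcc9*, the pore and the regulatory subunit of the potassium channel of pericytes, had 321 and 73.7 against 1.03 and 4.06 (-5.60) and 237 and 77.9 against 4.11 and 4.06 (-4.75). *Mcam*, an adhesion molecule of pericytes and endothelium, fell by 3.73, and *Anpep*, aminopeptidase N, by 3.05. In the PDGF and transforming growth factor β (TGF-β) list, 6 of 14 tested genes were lower and 4 higher, a median of -0.16, where 29% of all genes were higher and their median was -0.04. With *Bmal1* cKO mouse 1 or mouse 2 left out 3 were lower, and 2 were higher without WT mouse 1 and 1 without *Bmal1* cKO mouse 2. The receptor *Tgfbr2* fell from 3208 and 3442 to 1439 and 1588 (-1.14), and *Smad4*, the shared effector, rose from 3308 and 2686 to 4899 and 5519 (0.80), a call that ended without *Bmal1* cKO mouse 2 (0.72, adjusted p = 0.0601, limma). *Tgfbr1* (0.90) and *Smad2* (0.50) were higher, and both turned to values of -0.07 and -0.10 with the correction. *Smad2* was also not called without WT mouse 1 (0.47) or without *Bmal1* cKO mouse 2 (0.45).

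Fibroblast, endothelial and leukocyte markers were mostly lower as well, while those of enteric neurons, glia and interstitial cells and of epithelium were mixed (plot of all lists). Of fibroblast markers 12 of 16 tested were lower and 0 higher (median -4.12), of endothelial markers 15 of 18 and 0 (median -4.39), and of leukocyte markers 18 of 24 and 0 (median -3.05). In the same order, the medians were -2.77, -3.37 and -2.74 without WT mouse 1, and -4.99, -5.40 and -3.66 without WT mouse 2. They were -4.10, -3.79 and -2.93 without *Bmal1* cKO mouse 1, and -4.29, -4.26 and -3.34 without *Bmal1* cKO mouse 2. With all mice included, and tested genes at 0 in both cKO libraries set to their bound against 3 reads per library, the medians were -3.77, -4.29 and -2.92. No read was found in either *Bmal1* cKO library for 3 of 18 listed fibroblast markers, 2 of 19 endothelial markers and 1 of 24 leukocyte markers. The lowest mean of any listed gene was 3.39, so such genes were listed through their WT values alone, and these counts are a description. Leukocyte markers summed to 22095 and 34488 normalized counts in the WT mice and 5860 and 5474 in the cKO mice. Markers of enteric neurons, glia and interstitial cells had 4 of 8 tested lower and 1 higher (*Ano1*, 1.60, an anion channel), with a median of -1.29. That median ran from -1.58 to -1.01 over the fits without 1 mouse. The receptor *Ret* (-1.20) and the synaptic *Snap25* (-1.38) fell, each with its call lost in 3 of the 4 fits without 1 mouse. Of 19 epithelial markers 7 were lower and 2 higher, with a median of -0.34, where 27.7% of all tested genes were lower and 29% higher. The GC correction turned this balance to 2 lower and 6 higher, where 17.6% of all genes were lower with it and 18.4% higher. Over the fits without 1 mouse, the median of the epithelial markers ran from -0.59 to -0.23. The part of the share of non-epithelial cells in the fall of the smooth muscle and pericyte genes was not tested.

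**Figure D3:**
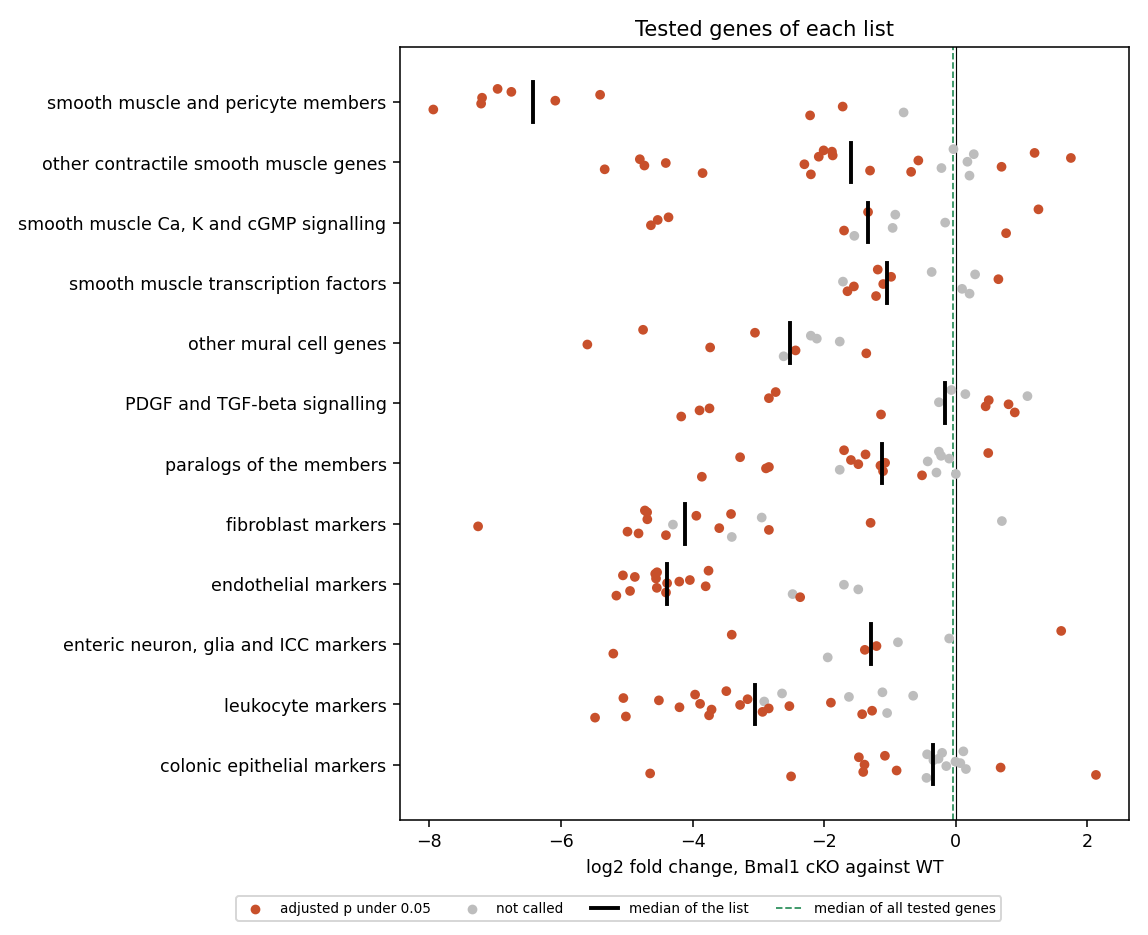
Log2 fold change, *Bmal1* cKO against WT, of every tested gene of each list (1 point per gene), with red for an adjusted p under 0.05, grey for genes not called, a black bar at the median of the list and a green dashed line at the median of all tested genes. The 10 smooth muscle and pericyte genes have the lowest median, -6.42, followed by endothelial (-4.39) and fibroblast (-4.12) markers, with epithelial markers near 0.

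The most abundant markers of each list were not all called. Among fibroblast markers, the collagen *Col3a1* had 4774 and 927 normalized counts in the WT mice against 155 and 119 in the *Bmal1* cKO mice (-3.94), and the matrix gene *Sparc* 2491 and 373 against 35.0 and 56.8 (-4.40). Both calls ended without either *Bmal1* cKO mouse. The collagen *Col1a2* fell from 1945 and 264 to 74.1 and 59.5 (-3.41), and its call ended with the GC correction (-2.68, adjusted p = 0.0684, limma) and without either *Bmal1* cKO mouse. *Dcn*, decorin, had 4286 and 401 against 131 and 219 and did not pass the test (-2.95, adjusted p = 0.0612, limma), but was called in 7 of 15 alternatives, among them the correction (-4.21, adjusted p = 0.0322).

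Among endothelial markers, *Lyve1*, of lymphatic vessels and some macrophages, had 526 and 64.4 normalized counts against 43.2 and 73.0. The groups overlapped for *Lyve1* and it did not pass the test (-1.70, adjusted p = 0.182, limma), but DESeq2 and the fit without WT mouse 2 (-3.20) called it lower. *Plvap* (-4.54) and *Eng* (-4.88) fell, with calls kept in every fit without 1 mouse. *Pecam1* fell from 528 and 126 to 10.3 and 29.7 (-3.80), and its call ended without WT mouse 1 (-2.77, adjusted p = 0.0700, limma) and without *Bmal1* cKO mouse 1 (adjusted p = 0.0965). Among leukocyte markers, the neutrophil gene *Ly6g* fell (-1.27) and kept its call in every such fit. The calprotectin genes *S100a8* (-3.75) and *S100a9* (-5.01) fell, and both calls ended without either *Bmal1* cKO mouse. *Cd14*, of monocytes, did not pass the test (-1.11, adjusted p = 0.120, limma) and was called lower without WT mouse 1 (-1.95).

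Among epithelial markers, the goblet cell mucin *Muc2* fell from 62753 and 101737 to 24129 and 37690 normalized counts (-1.41, adjusted p = 0.0172, limma), and its call ended with the GC correction (adjusted p = 0.0508), without WT mouse 2 and without either *Bmal1* cKO mouse. *Ceacam1* (-0.26), *Krt8* (0.16) and *Krt19* (-0.14) did not pass the test. The correction gave *Krt8* 1.08 and *Krt19* 0.84, both called higher.

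The ratio between the WT mice was not the same for muscle genes and for other stromal genes (plot of the ratio between the WT mice). Between WT mouse 1 and WT mouse 2, the 10 genes had a median log2 ratio of -0.03, with 5 higher in each mouse, and the median of all tested genes was 0.01. Fibroblast markers had a median of 2.22 and endothelial markers one of 2.05, both higher in WT mouse 1, and 18 of 18 endothelial markers were higher there. Within the 10 genes the ratios varied. *Cnn1* in WT mouse 1 was 0.293 times its level in WT mouse 2 (0.240 to 0.355), *Actg2* 0.509 times and *Des* 0.663 times, while *Myh11* was equal (1.02 times). *Rgs5* was 2.08 times higher in WT mouse 1 (1.81 to 2.41), and *Pdgfrb* was 2.98 times higher (2.35 to 3.81). The other mural cell genes had a median of 1.30 on the log2 scale, with 10 of 10 higher in WT mouse 1, among them *Kcnj8* at 4.36 times. *Acta2* stood at 1.57 times and *Myl9* at 1.20 times, and the mural cell gene *Anpep* at 1.04 times. These ratios compare 2 mice of 1 group and carry no test.

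**Figure D4:**
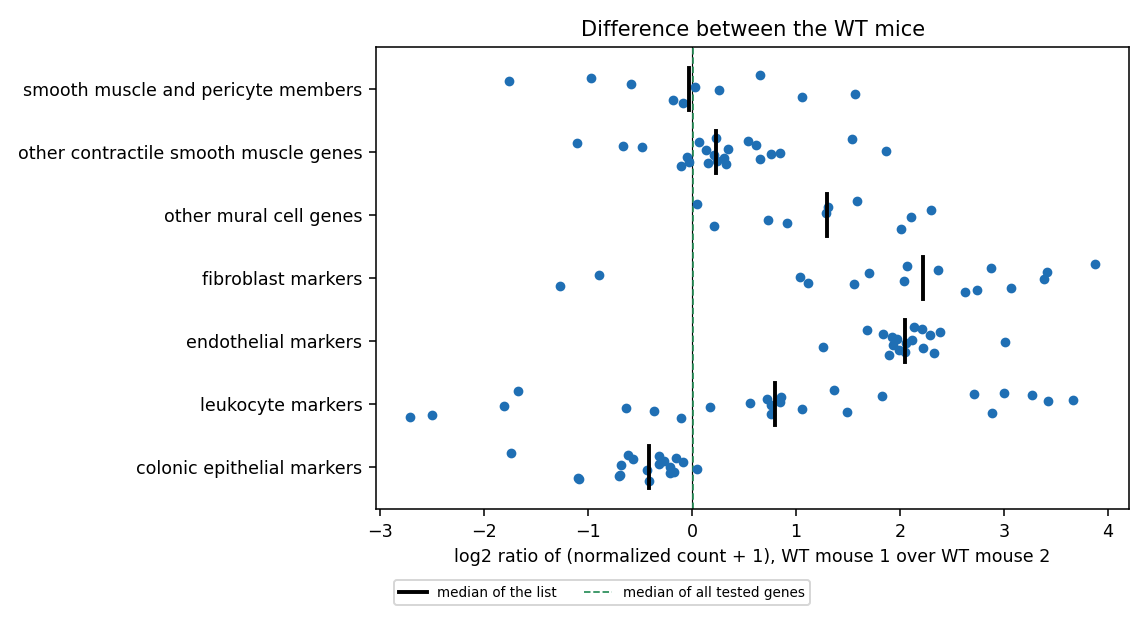
Log2 ratio of (normalized count + 1) in WT mouse 1 over WT mouse 2 for every tested gene of each list, with a black bar at the median of the list and a green dashed line at the median of all tested genes. The smooth muscle and pericyte genes lie on both sides of 0, and the mural, fibroblast and endothelial medians lie at 1.30, 2.22 and 2.05.

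Outside the 10 genes, the profiles most like theirs over the 4 libraries were, by the distance between centred log2 values, those of *Rac2* (0.20), *Pcsk1n* (0.41), *Klf2* (0.50), *Sst* (0.56) and *Hcls1* (0.67); genes with a mean under 50 were left out. None of these is a muscle gene. *Rac2* and *Hcls1* are genes of blood cells, *Sst* and *Pcsk1n* of hormone-secreting cells, and *Klf2* of endothelium and lymphocytes. *Rac2* had 570 and 626 normalized counts in the WT mice against 11.3 and 21.6 in the *Bmal1* cKO mice, and *Sst*, somatostatin, had 119 and 180 against 3.09 and 5.41. For all 5 the WT mice differed less from each other than from the *Bmal1* cKO mice. Likeness over 4 libraries was chosen from these values and is a description.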

How the data were processed

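RNA of colonic epithelial cells from 2 WT and 2 *Bmal1* cKO mice was sequenced. The authors aligned reads to GRCm38 (mm10) with STAR and used DESeq2, as the submitters' notes and methods state. The library kit differs between the labels and the methods. The counter, strand setting and annotation release are not given in the sources used here. The deposited values of each library are a signal, gene counts divided by a size factor, and 100% of them were whole reads within 0.1 reads. The deposited mean, fold changes, Wald statistics and p-values were not used. Genes were matched to GENCODE vM21 for coordinates, length and GC content (16008 of 16015).

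Genes with a mean of at least 10 (13983) were tested with limma 3.58.1 (mean-variance trend, two-sided) on log2(normalized count + 1), with Benjamini-Hochberg adjustment over all of them and a threshold of 0.05. Ratios of WT to cKO reads carry exact 95% intervals for counting error. Alternatives were pseudocounts 0.5 and 5, other filters, scaling by library total or TMM, edgeR 4.0.16 and DESeq2 1.42.0 on recovered reads, a loess correction for GC content and length (span 0.3), a block for the mouse number, and leaving out each mouse. The 10 genes and all lists were chosen with earlier results of these data known. Genes named from the lists were the 4 most abundant of each, all paralogs tested, *Arntl*, and the 5 nearest profiles. *Gm48529*, *Gm15179*, *Pcsk7*, *Rgs4*, *Ldb3* and *Dmd* were named after their values were seen.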

Additional observations from a re-analysis of the deposited data

How the results depend on the processing

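Of the 10 genes, 8 or 9 were called lower and 0 higher under each of the 15 alternatives. Their median log2 fold change of -6.42 moved to -5.21 with a pseudocount of 5, as that pseudocount shrinks low values, and ran from -6.74 to -5.46 over the fits without 1 mouse. In those fits the lone mouse of a group is assumed to vary like the others. The mouse numbers of the labels pair nothing that the labels state: deviations of same-numbered mice had a correlation of -0.09, and with a replicate block 3789 genes were called lower and 3899 higher, 9 of the 10 genes among the lower ones. Scaling by library totals moved the median of all genes to -0.26 and the calls from 3871 lower and 4059 higher to 4885 and 3091.

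With the GC and length correction 2458 genes were called lower and 2570 higher, and with the replicate block in the same fit 2077 and 2177. Without 1 mouse, 2205 to 2852 were lower and 2654 to 3154 higher. With the correction, and again with block and correction together, 1 contractile gene and 1 of calcium, potassium and cyclic GMP signalling were called higher, as were 2 of PDGF and TGF-β signalling and 2 paralogs. Lower calls with the correction numbered 1 among transcription factors (2 with the block), and 2 among epithelial markers. Epithelial markers called higher numbered 6, and 5 with the block. The fit with block and correction called 2 genes of calcium signalling and 6 paralogs lower, and the block alone 0 paralogs higher. Library total scaling called higher 2 genes of PDGF and TGF-β signalling, 0 paralogs and 1 epithelial marker. A minimum mean of 50, which tests fewer genes, called lower 7 contractile genes, 1 of calcium signalling and 2 of neurons, glia and interstitial cells.

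Without 1 mouse, genes called lower ranged from 1 to 3 for calcium signalling, 3 to 4 for transcription factors, 3 to 6 for PDGF and TGF-β signalling, 7 to 13 for paralogs, 5 to 12 for fibroblast markers, 5 to 18 for endothelial markers, 1 to 3 for neurons, glia and interstitial cells, and 9 to 20 for leukocyte markers. The lowest fibroblast and endothelial counts, 5 each, came both without *Bmal1* cKO mouse 1 and without *Bmal1* cKO mouse 2. Genes called higher ranged from 1 to 3 for PDGF and TGF-β signalling, 0 to 0 for paralogs, and 0 to 2 for epithelial markers.

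The sign of 12 of the 70 single genes followed turned in some alternative. With the GC and length correction, alone or with the block, log2 fold changes became 0.31 for *Actn1*, -0.38 for *Ppp1r12a*, -0.21 for *Tead1*, -0.0672 for *Tgfbr1*, -0.10 for *Smad2*, -0.0220 for *Tpm3*, 1.01 for *Myh14* and 0.84 for *Krt19*. Library total scaling gave -0.0157 for *Tead1*, -0.22 for *Tpm3* and -0.0710 for *Krt8*, and TMM gave -5.51e-04 for *Tpm3*. Without 1 mouse, values ran from -0.28 to 0.83 for *Fhl1*, -0.15 to 0.0777 for *Actn1*, -0.0341 to 0.0371 for *Tpm3*, -0.52 to 0.32 for *Kit*, -0.88 to 0.44 for *Cnn3* and -0.34 to 0.0489 for *Krt19*. Except where the construction of an alternative is named, the cause was not tested. Among the same 70 genes, 23 lost their call in some alternative that kept their sign, and 11 gained one. Calls that changed where the sign turned are not in these counts, such as *Tgfbr1* (lost with the correction) and *Krt19* (gained with it). Depth limits the ratios of *Actg2*, *Des*, *Myl9* and *Rgs5*, which had at most 3 reads in the *Bmal1* cKO libraries together.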
